A study of Homo sapiens with 15 samples.

Results

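The 35 genes described here code for proteins of homologous recombination and of the Fanconi anemia pathway, with the ATR checkpoint that works beside them. They were chosen by name, with earlier results of these data known. Each gene had 1 row in each of the 3 deposited tables. These hold 13751 genes for PC3 with MYCi975, 12998 for P493-6 with MYCi975 and 13703 for P493-6 with tetracycline. RNA was sequenced from 15 samples of 2 established human cell lines, 3 libraries per group. PC3 is a prostate cancer line. P493-6 is labelled a Burkitt lymphoma line that overexpresses MYC; its introduced MYC gene is under a tetracycline-repressible promoter. The 5 groups were PC3 with 8 µM MYCi975, PC3 control, P493-6 with 6 µM MYCi975, P493-6 with 0.1 µg/ml tetracycline, and P493-6 control, all collected after 24 h in medium with 10% serum. MYCi975 is a small molecule described as an inhibitor of the MYC protein. The control cells received DMSO, the solvent of MYCi975, per the labels' protocols. Tetracycline was given in water, so its comparison with the control includes the change of solvent. The labels do not state whether the 3 libraries of each group had separate cultures as their source, and the p-values therefore cover library spread that could be technical.

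Homologous recombination repairs a broken chromosome by copying the sister chromatid and works mainly in S and G2 phase. The broken ends are first resected by MRE11, RAD50, NBN, CtIP (coded by RBBP8) and EXO1. BRCA1 with BARD1, PALB2 and BRCA2 then prepare the resected DNA for strand exchange, which XRCC2, XRCC3 and the RAD54 motor proteins assist. The Fanconi core complex and the ubiquitin-conjugating enzyme UBE2T mark the FANCD2 and FANCI proteins at DNA crosslinks, and recombination completes that repair. ATR with ATRIP senses exposed single-stranded DNA, TOPBP1 activates ATR, and CHEK1 carries the signal to the cell cycle. Many of these genes are transcribed most in late G1 and S phase and are known targets of E2F factors.

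Promoter sequences are shown for the 5 members lower in all 3 treatment comparisons whose smallest change over the 3 was largest, EXO1, XRCC2, BLM, UBE2T and BRCA2, and for MUS81, a member that was higher in 2 of them and was chosen after its values were seen. Each runs from 250 bases before to 50 bases after the start that RefSeq gives the gene and is printed 5′ to 3′ on the strand of the gene (RefSeq, GRCh38.p14). The RefSeq start is not always the first base of the gene in the files: for EXO1 it lies 237 bases inside the gene, and for MUS81 it lies 3307 bases inside, so the MUS81 window does not hold the start given in the files. Capitals mark matches on either strand to 4 motifs. These were E2F (TTTCCCGC, TTTCGCGC, TTTGCCGC or TTTGGCGC), the E-box CACGTG, the NF-Y box CCAAT and the cell cycle homology region (CHR, TTTGAA or TTCGAA).
EXO1 promoter (chr1:241847954-241848253, plus strand): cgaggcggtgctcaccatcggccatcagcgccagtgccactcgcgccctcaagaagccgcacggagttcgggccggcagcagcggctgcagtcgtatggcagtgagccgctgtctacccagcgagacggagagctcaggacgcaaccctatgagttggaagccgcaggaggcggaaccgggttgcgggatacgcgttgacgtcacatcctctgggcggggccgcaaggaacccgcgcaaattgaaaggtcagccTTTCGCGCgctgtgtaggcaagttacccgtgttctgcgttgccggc
XRCC2 promoter (chr7:152676092-152676391, minus strand): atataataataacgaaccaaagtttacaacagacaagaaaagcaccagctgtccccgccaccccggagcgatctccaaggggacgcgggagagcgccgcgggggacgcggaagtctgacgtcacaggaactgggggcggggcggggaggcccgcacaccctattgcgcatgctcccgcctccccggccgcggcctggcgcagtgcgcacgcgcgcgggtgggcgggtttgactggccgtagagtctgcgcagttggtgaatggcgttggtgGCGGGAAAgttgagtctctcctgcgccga
BLM promoter (chr15:90717096-90717395, plus strand): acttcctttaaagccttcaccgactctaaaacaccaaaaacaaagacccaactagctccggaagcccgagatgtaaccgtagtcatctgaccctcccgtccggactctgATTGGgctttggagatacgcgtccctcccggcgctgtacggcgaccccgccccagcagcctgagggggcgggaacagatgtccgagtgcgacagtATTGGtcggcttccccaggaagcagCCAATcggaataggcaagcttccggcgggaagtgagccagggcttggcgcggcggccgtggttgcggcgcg
UBE2T promoter (chr1:202341887-202342186, minus strand): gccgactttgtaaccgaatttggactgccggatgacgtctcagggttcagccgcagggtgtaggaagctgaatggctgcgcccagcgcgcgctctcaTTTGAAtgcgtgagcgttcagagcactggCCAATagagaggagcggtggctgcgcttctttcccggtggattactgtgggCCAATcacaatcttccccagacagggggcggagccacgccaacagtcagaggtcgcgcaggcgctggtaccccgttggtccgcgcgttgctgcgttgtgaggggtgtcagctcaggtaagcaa
BRCA2 promoter (chr13:32315258-32315557, plus strand): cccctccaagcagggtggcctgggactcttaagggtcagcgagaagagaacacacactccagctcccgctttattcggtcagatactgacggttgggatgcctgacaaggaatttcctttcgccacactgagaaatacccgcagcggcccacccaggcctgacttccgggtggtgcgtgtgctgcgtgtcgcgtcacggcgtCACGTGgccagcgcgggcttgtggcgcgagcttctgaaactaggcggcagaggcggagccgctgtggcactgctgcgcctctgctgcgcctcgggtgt
MUS81 promoter (chr11:65860183-65860482, plus strand): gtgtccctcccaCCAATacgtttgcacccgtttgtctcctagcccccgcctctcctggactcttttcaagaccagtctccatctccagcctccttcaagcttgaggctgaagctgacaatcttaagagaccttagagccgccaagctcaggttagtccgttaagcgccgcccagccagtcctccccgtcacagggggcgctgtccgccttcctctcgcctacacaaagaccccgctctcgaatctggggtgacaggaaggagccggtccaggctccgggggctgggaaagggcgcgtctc
EXO1 carries its E2F match 4 to 11 bases after the start, and XRCC2 carries one 21 to 28 bases after the start, on the opposite strand. In BRCA2 the match is an E-box, the sequence that MYC and MAX bind, 48 to 43 bases before the start. The BLM window holds 3 NF-Y boxes, and that of UBE2T holds 2 with a CHR. MUS81 has a single NF-Y box at the far end of its window. A match is a run of letters and was not tested as a binding site.

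Library depth was 8162582 to 15926008 reads, so 1 CPM (reads scaled to the total counted in that library) stood for 8.16 to 15.9 reads. MYC itself had 152, 145 and 149.8 CPM with tetracycline, against 4692, 4701 and 4791 CPM in P493-6 control, a log2 fold change of -4.98 (95% confidence interval -5.05 to -4.91, adjusted p = 2.76e-49). With MYCi975 the MYC transcript was at 5138, 5084 and 5132 CPM in P493-6, a change of 0.11 (adjusted p = 0.00535). In PC3 it was at 378, 359 and 386 CPM with MYCi975, against 301, 300.4 and 309 CPM in control, a change of 0.301 (adjusted p = 3.99e-14). The 7 B cell markers (among them MS4A1, CD79A, PAX5 and CD74) were all listed in P493-6 and only CD74 was listed in PC3, at 1.25 to 4.27 CPM. The keratins KRT8 and KRT18 were listed in PC3 and not in P493-6. EPCAM, an epithelial surface marker, was also listed in P493-6, at 10.7 to 14.3 CPM in the MYCi975 and control libraries. So was VIM, another of the 6 genes of the epithelial list, which rose by 1.34 with tetracycline. All 6 were listed in PC3, 2 in P493-6 MYCi975 and control, and 3 with tetracycline. The listed genes summed to 2960 to 2990 CPM in PC3 control, 744 to 786 CPM in P493-6 control and 1889 to 1920 CPM with tetracycline. The T cell genes CD2, CD3D and CD3E were not listed in PC3 and summed to 3.60 to 12.1 CPM in P493-6. CPM is relative to the library total, so a change in total RNA per cell is not measured, and fewer cycling cells and less RNA per cell cannot be told apart in these bulk samples.

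Most of the repair genes were called lower in PC3 with MYCi975 and with tetracycline. In P493-6 with MYCi975 the count called lower was smaller and varied with the scaling. With MYCi975 in PC3, 27 of the 35 members fell and 2 rose, where 30.1% of all genes were called lower and 29% higher (limma, Benjamini-Hochberg adjusted p below 0.05 over all genes). In P493-6 with MYCi975, 18 members fell and 0 rose, against 18% of all genes called lower and 10.6% higher. With tetracycline 28 fell and 2 rose, against 41.9% lower and 36.2% higher among all genes. The count of 0 risers in P493-6 with MYCi975 was also 0 by edgeR's quasi-likelihood test, and 0 at an unadjusted p below 0.05. The median log2 fold change of the members was -0.43 in PC3 with MYCi975, -0.17 in P493-6 with MYCi975 and -0.81 with tetracycline. Over all genes tested the medians were -0.00205, -0.0424 and -0.0503. With scaling by trimmed means (TMM), the split of all genes in P493-6 with MYCi975 became 1819 higher and 1690 lower, against 1375 higher and 2338 lower without it, and 14 members were then called lower.

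Across the 3 comparisons, 16 members fell in every one: EXO1, XRCC2, BLM, UBE2T, BRCA2, RAD54B, CHEK1, RAD54L, XRCC3, ATRIP, BRIP1, TOPBP1, ATR, FANCM, FANCD2 and FANCA. Among the 11192 genes present in all 3 tables, 11.1% were called lower in all 3. A further 8 fell in PC3 with MYCi975 and with tetracycline but were not called in P493-6 with MYCi975. The share of all genes with that pattern was not computed. RAD51D, FANCC and FANCF were called in none of the 3. The P493-6 comparisons share their control libraries, so their calls are not independent of each other.

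**Figure D1:**
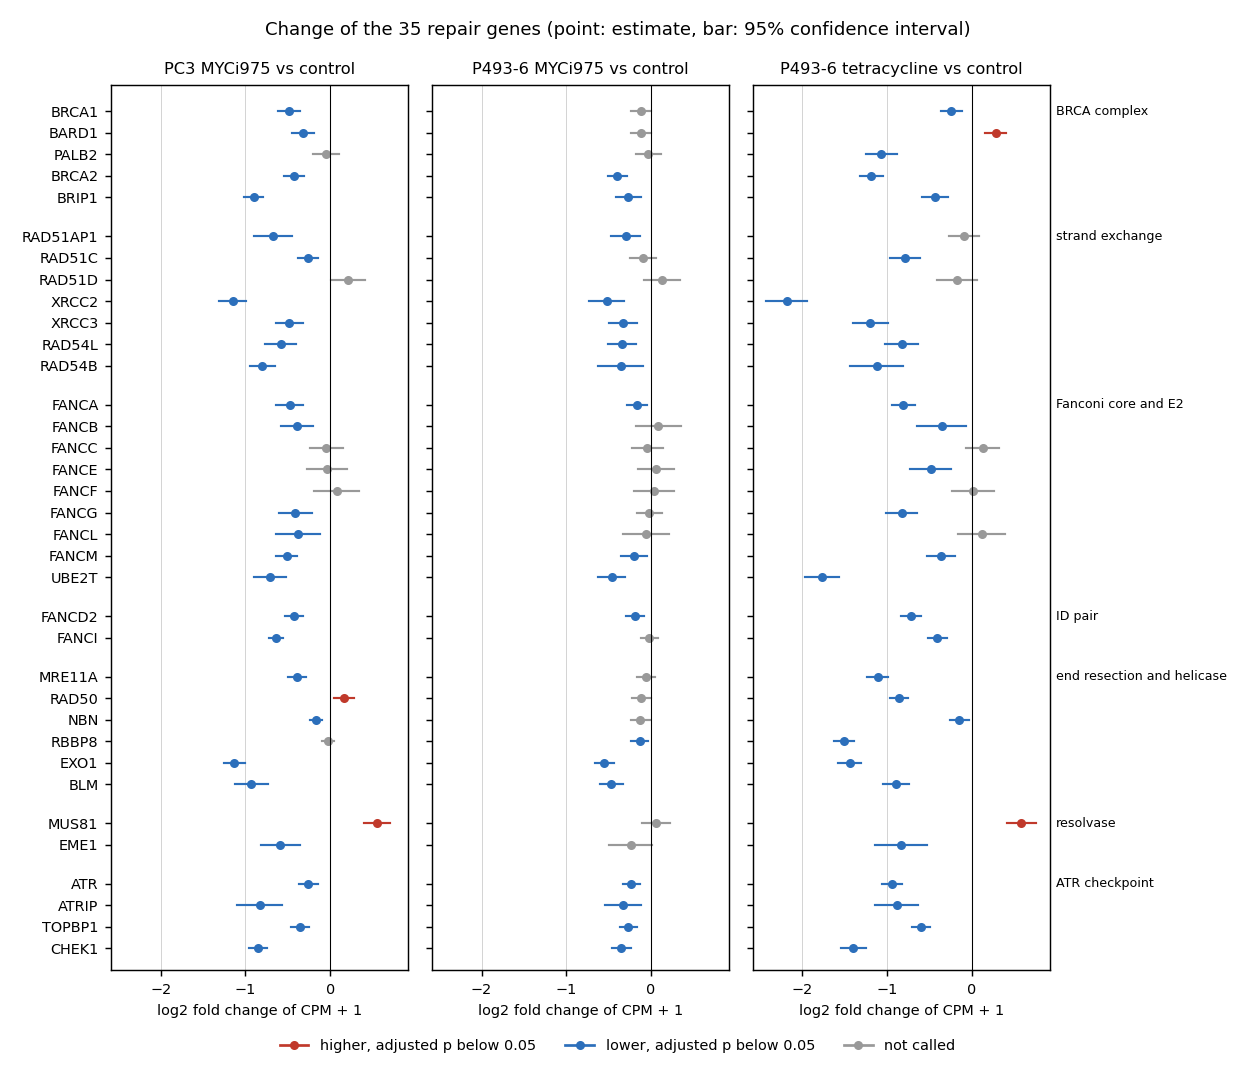
Log2 fold change (x axis, log2 of CPM + 1) of each of the 35 repair genes (rows, grouped by role), one panel per treatment against its own control. Points are estimates and bars 95% confidence intervals from 3 libraries per group; most points lie left of 0 in all panels, and MUS81 lies right of 0 at 0.55 in PC3 and 0.59 with tetracycline.

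Cycling cell markers moved in the same comparisons. Of 14 such genes, among them MKI67, TOP2A, PCNA and CCNB1, 13 fell in PC3 with MYCi975 (median -1.07), 13 fell in P493-6 with MYCi975 (median -0.35) and 11 fell with tetracycline (median -0.39), and none rose in these 3 comparisons. Their summed level was 988 to 1032 CPM in PC3 MYCi975 libraries, against 2150 to 2175 CPM in PC3 control. In P493-6 the sum was 2059 to 2137 CPM with MYCi975 and 1968 to 2092 CPM with tetracycline, against 2577 to 2742 CPM in control, and none of the 14 was at 0. In both lines the treated libraries lay below the controls. The part of the cycling markers in the repair gene changes was not tested. The B cell markers summed to 4408 to 4723 CPM with MYCi975 and 11500 to 11900 CPM with tetracycline, against 3898 to 4124 CPM in control; all 7 rose with tetracycline.

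Among the 5 genes of the BRCA complex, BRCA2 and BRIP1 fell in all 3 comparisons, PALB2 fell with tetracycline only, and BARD1 fell in PC3 and rose with tetracycline. BRCA2 (chr13:32315474-32400266, plus strand, hg38 as in the files), which prepares resected DNA for strand exchange, had 34.6, 35.6 and 35.1 CPM in the PC3 MYCi975 libraries, against 46.7, 49.3 and 47.2 CPM in the PC3 control libraries. P493-6 values for BRCA2 were 65.8, 61.4 and 68.1 CPM with MYCi975 and 39.02, 35.4 and 37.4 CPM with tetracycline, against 91.5, 80.8 and 85.7 CPM in control. No treated library reached the level of a control library in either line, and the tetracycline libraries were the lowest in P493-6. BRCA2 changed by -0.43 (95% confidence interval -0.55 to -0.31, adjusted p = 7.96e-10) on the log2 scale in PC3. For BRCA2 in P493-6, the change was -0.397 (95% confidence interval -0.51 to -0.28, adjusted p = 5.07e-07) with MYCi975 and -1.18 (95% confidence interval -1.32 to -1.05, adjusted p = 2.55e-19) with tetracycline. The MYCi975 changes of BRCA2, PC3 minus P493-6, differed by -0.035 (95% confidence interval -0.202 to 0.13), which was not called.

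BRIP1 (chr17:61681266-61863521, minus strand), a helicase that binds the C-terminal repeats of BRCA1, had 33.8, 32.8 and 31.6 CPM in the PC3 MYCi975 libraries, against 62.98, 60.9 and 62.2 CPM in the PC3 control libraries. P493-6 values for BRIP1 were 32.3, 39.1 and 37.04 CPM with MYCi975 and 29.04, 33.9 and 33.2 CPM with tetracycline, against 43.5, 43.3 and 43.99 CPM in control. Every treated library was below every control library, while the MYCi975 and tetracycline libraries of P493-6 overlapped. In PC3 the log2 fold change of BRIP1 was -0.903 (95% confidence interval -1.02 to -0.79, adjusted p = 3.45e-26). For BRIP1 in P493-6, it was -0.27 (adjusted p = 0.00371) with MYCi975 and -0.44 (adjusted p = 3.12e-06) with tetracycline. Without MYCi975 replicate 1 the P493-6 value of the inhibitor was -0.19 and was not called (adjusted p = 0.0686).

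BRCA1 and BARD1 form a ubiquitin ligase together and normally stabilise each other as proteins. BRCA1 (chr17:43044295-43125483, minus strand) had 26.5, 30.9 and 32.2 CPM in the PC3 MYCi975 libraries, against 40.9, 42.1 and 43.4 CPM in the PC3 control libraries. P493-6 values for BRCA1 were 68.9, 68.99 and 77.6 CPM with MYCi975 and 62.6, 66.03 and 68.8 CPM with tetracycline, against 82.6, 78.9 and 72.5 CPM in control. In PC3 the groups were separate, and in P493-6 the MYCi975 and control libraries overlapped. The changes were -0.49 (adjusted p = 3.02e-10) in PC3 and -0.24 (adjusted p = 0.000609) with tetracycline. With MYCi975 in P493-6 the change of BRCA1 was -0.12 (adjusted p = 0.134) and was called only without MYCi975 replicate 3 (-0.17, adjusted p = 0.0332). BARD1 (chr2:214725646-214809711, minus strand) had 28.4, 28.1 and 30.1 CPM in the PC3 MYCi975 libraries, against 36.04, 36.7 and 36.1 CPM in the PC3 control libraries. P493-6 values for BARD1 were 58.9, 55.5 and 53.4 CPM with MYCi975 and 77.9, 70.2 and 73.98 CPM with tetracycline, against 61.5, 60.6 and 59.95 CPM in control. All tetracycline libraries of BARD1 lay above the controls and all MYCi975 libraries lay below them. BARD1 thus changed by -0.32 (adjusted p = 1.40e-05) in PC3 and by 0.28 (adjusted p = 7.39e-05) with tetracycline, in opposite directions. In P493-6 with MYCi975 its change of -0.12 was not called (adjusted p = 0.148).

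PALB2 (chr16:23603160-23641310, minus strand), the bridge between BRCA1 and BRCA2, had 21.3, 23.7 and 22.6 CPM in the PC3 MYCi975 libraries, against 21.03, 22.98 and 26.2 CPM in the PC3 control libraries. P493-6 values for PALB2 were 37.8, 34.7 and 36.04 CPM with MYCi975 and 15.8, 18.99 and 16.7 CPM with tetracycline, against 38.9, 36.1 and 36.01 CPM in control. The tetracycline libraries stood alone, at less than every other P493-6 library, and the MYCi975 libraries overlapped their controls in both lines. The tetracycline change of PALB2 was -1.07 (95% confidence interval -1.25 to -0.89, adjusted p = 8.17e-14). With MYCi975 the changes were -0.047 (95% confidence interval -0.203 to 0.11) in PC3 and -0.031 (95% confidence interval -0.18 to 0.12) in P493-6, neither called.

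The 7 genes that assist strand exchange held the largest single change of the 35 genes. XRCC2 (chr7:152644779-152676165, minus strand), which assists strand exchange, had 15.5, 16.7 and 12.9 CPM in the PC3 MYCi975 libraries, against 32.9, 35.6 and 34.99 CPM in the PC3 control libraries. P493-6 values for XRCC2 were 26.5, 29.3 and 29.1 CPM with MYCi975 and 8.26, 9.68 and 7.07 CPM with tetracycline, against 50.6, 40.3 and 34.1 CPM in control. The 3 P493-6 groups did not overlap, with tetracycline lowest and control highest, and the control libraries themselves spread widely. XRCC2 changed by -1.15 (95% confidence interval -1.31 to -0.99, adjusted p = 5.78e-24) in PC3. For XRCC2 in P493-6, the change was -0.53 (95% confidence interval -0.73 to -0.32, adjusted p = 0.000264) with MYCi975 and -2.18 (95% confidence interval -2.43 to -1.94, adjusted p = 2.72e-17) with tetracycline. Its mean level with tetracycline was 20.02% of that in control.

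XRCC3, which pairs with RAD51C, averaged 17.03 ± 0.459 CPM in PC3 MYCi975 and 24.2 ± 1.51 CPM in PC3 control (SD, n = 3 each). In P493-6 XRCC3 averaged 26.2 ± 1.43 CPM with MYCi975, 14.1 ± 2.19 CPM with tetracycline and 33.4 ± 3.13 CPM in control. Its changes of -0.48, -0.33 and -1.198 were all called (adjusted p = 1.55e-07, 0.00138 and 2.12e-13). KLC1, on the opposite strand, shares 76.7% of the exon bases of XRCC3, and it rose by 0.68 with tetracycline and was not called with MYCi975 (adjusted p = 0.204 in PC3 and 0.209 in P493-6). RAD51C averaged 44.03 ± 4.41 CPM in PC3 MYCi975 and 53.1 ± 2.67 CPM in PC3 control, and fell by 0.27 on the log2 scale (adjusted p = 6.80e-05). With tetracycline RAD51C averaged 19.6 ± 1.57 CPM, against 34.7 ± 1.43 CPM in control, a change of -0.79 (adjusted p = 1.55e-10). In P493-6 with MYCi975 its change was -0.094 (95% confidence interval -0.24 to 0.055) and was not called. RAD51D, which works with XRCC2, was the only gene of these 7 with no call in the 3 comparisons, at 0.21 (95% confidence interval 0.0088 to 0.42) in PC3, 0.12 (95% confidence interval -0.088 to 0.34) in P493-6 with MYCi975 and -0.18 (95% confidence interval -0.41 to 0.057) with tetracycline. It was called higher in PC3 without MYCi975 replicate 3 (adjusted p = 0.0193) or control replicate 1 (0.0297), and lower with tetracycline without control replicate 3 (0.0493).

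RAD51AP1, which stimulates strand invasion, followed another course. It had 6.93, 8.01 and 6.79 CPM in the PC3 MYCi975 libraries, against 12.4, 11.1 and 12.9 CPM in the PC3 control libraries. P493-6 values for RAD51AP1 were 23.01, 21.8 and 19.97 CPM with MYCi975 and 23.9, 24.5 and 27.1 CPM with tetracycline, against 28.01, 27.02 and 25.3 CPM in control. The MYCi975 libraries were below the controls in both lines, and the tetracycline libraries overlapped the controls. RAD51AP1 changed by -0.67 (95% confidence interval -0.89 to -0.45, adjusted p = 1.16e-07) in PC3. For RAD51AP1 in P493-6, the change was -0.298 (adjusted p = 0.00701) with MYCi975 and -0.087 (adjusted p = 0.366) with tetracycline. A processed pseudogene, RAD51AP1P1, exists for this gene, and reads of near-identical copies may have been dropped or split in counting.

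RAD54L and RAD54B are motor proteins that remodel DNA during strand exchange. RAD54L had 10.6, 11.7 and 13.6 CPM in the PC3 MYCi975 libraries, against 18.3, 18.2 and 18.6 CPM in the PC3 control libraries. P493-6 values for RAD54L were 23.3, 26.5 and 23.8 CPM with MYCi975 and 15.2, 18.1 and 18.5 CPM with tetracycline, against 33.4, 32.1 and 28.5 CPM in control. In both lines the treated libraries stood below the controls. RAD54L changed by -0.58 (adjusted p = 4.94e-08) in PC3, -0.34 (adjusted p = 0.00134) in P493-6 under MYCi975 and -0.83 (adjusted p = 4.22e-10) with tetracycline. RAD54B had 24.2, 19.3 and 19.9 CPM in the PC3 MYCi975 libraries, against 35.8, 36.8 and 39.8 CPM in the PC3 control libraries. P493-6 values for RAD54B were 8.64, 6.51 and 9.29 CPM with MYCi975 and 5.05, 4.78 and 3.34 CPM with tetracycline, against 11.9, 10.9 and 9.21 CPM in control. The PC3 levels were the higher ones throughout, and in P493-6 the MYCi975 libraries overlapped the controls. RAD54B changed by -0.802 (adjusted p = 1.17e-16) in PC3, -0.36 (adjusted p = 0.0339) in P493-6 under MYCi975 and -1.12 (adjusted p = 1.84e-08) with tetracycline. The middle call was lost with TMM (adjusted p = 0.0618), with edgeR (0.0641) and without control replicate 1, control replicate 2 or MYCi975 replicate 2 (0.0993 to 0.259). FSBP, on the same strand, shares 59.1% of the exon bases of RAD54B, so their reads may be mixed or dropped.

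**Figure D2:**
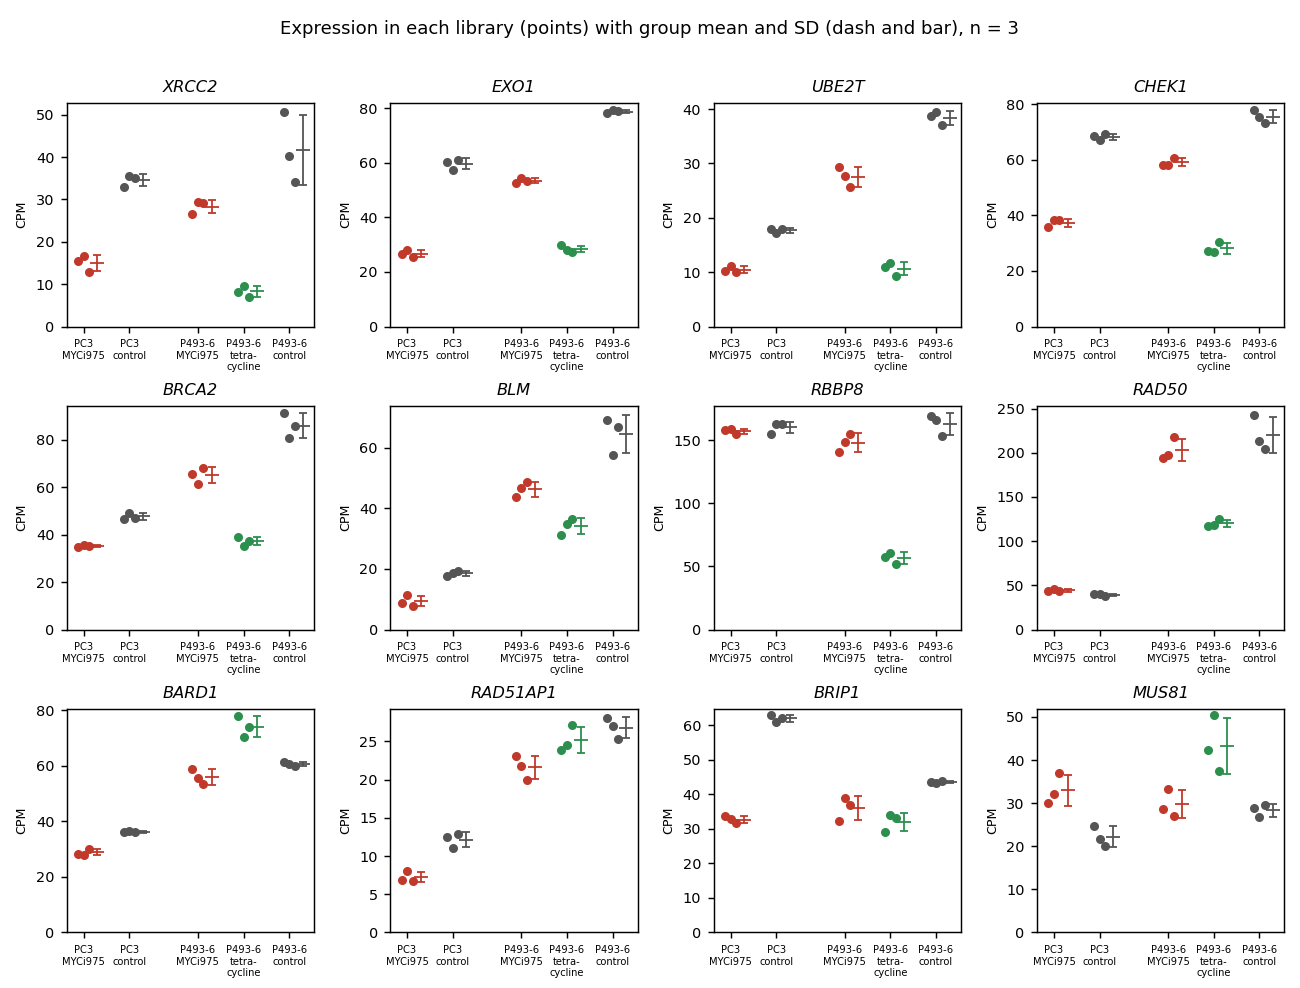
CPM (y axis, from 0) of 12 repair genes in each library of the 5 groups (points), with the group mean and SD beside them (n = 3). XRCC2, EXO1, UBE2T, CHEK1, BRCA2 and BLM are lower in all treated groups, RBBP8 drops to 51.9 to 60.8 CPM with tetracycline, and MUS81 is higher in PC3 MYCi975 and in tetracycline libraries.

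Of the 9 genes of the Fanconi core complex and its E2 enzyme, 6 fell in PC3, 3 fell in P493-6 with MYCi975, 6 fell with tetracycline, and none rose in these comparisons. Among all genes, 30.1%, 18% and 41.9% were called lower in these comparisons. UBE2T (chr1:202331657-202341980, minus strand), the ubiquitin-conjugating enzyme of the pathway, changed most. It had 10.2, 11.2 and 10.04 CPM in the PC3 MYCi975 libraries, against 17.96, 17.1 and 17.99 CPM in the PC3 control libraries. P493-6 values for UBE2T were 29.3, 27.6 and 25.7 CPM with MYCi975 and 10.9, 11.6 and 9.297 CPM with tetracycline, against 38.7, 39.5 and 37.04 CPM in control. All groups were separate within each line, with tetracycline the lowest in P493-6. UBE2T changed by -0.71 (95% confidence interval -0.89 to -0.52, adjusted p = 2.75e-10) in PC3. For UBE2T in P493-6, the change was -0.47 (95% confidence interval -0.62 to -0.31, adjusted p = 4.91e-06) with MYCi975 and -1.77 (95% confidence interval -1.97 to -1.57, adjusted p = 2.08e-19) with tetracycline. Tetracycline libraries kept a mean of 27.6% of the control level.

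FANCM, the helicase that anchors the core complex to DNA, averaged 31.7 ± 1.995 CPM in PC3 MYCi975 and 45.8 ± 2.602 CPM in PC3 control. In P493-6 FANCM averaged 30.3 ± 2.297 CPM with MYCi975, 26.98 ± 1.198 CPM with tetracycline and 34.9 ± 1.86 CPM in control. Its changes were -0.52 (adjusted p = 9.38e-12), -0.202 (adjusted p = 0.0452) and -0.36 (adjusted p = 0.000139). The P493-6 MYCi975 call was lost with TMM (0.124), with edgeR (0.125) and on leaving out any control library or MYCi975 replicate 1 or 3 (0.0505 to 0.179). FANCA, a core subunit, averaged 21.8 ± 3.52 CPM in PC3 MYCi975 and 30.5 ± 2.23 CPM in PC3 control, a change of -0.48 (adjusted p = 5.13e-07). In P493-6 FANCA averaged 63.2 ± 0.857 CPM with MYCi975 and 40.2 ± 1.43 CPM with tetracycline, against 71.3 ± 4.76 CPM in control. These were changes of -0.17 (adjusted p = 0.0249) and -0.81 (adjusted p = 5.52e-14). The first was lost with TMM (0.0998), with edgeR (0.0889) and without control replicate 1, control replicate 2 or MYCi975 replicate 2 (0.0742 to 0.148). FANCG, which binds FANCA, averaged 10.6 ± 0.646 CPM in PC3 MYCi975 and 14.5 ± 1.595 CPM in PC3 control, a change of -0.41 (adjusted p = 0.000235). With tetracycline FANCG averaged 20.6 ± 2.55 CPM, against 37.2 ± 2.96 CPM in control, a change of -0.83 (adjusted p = 1.28e-10). Its change with MYCi975 in P493-6 was -0.018 (95% confidence interval -0.17 to 0.13) and was not called.

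FANCB and FANCL belong to the catalytic module, in which FANCL is the ubiquitin ligase. FANCB averaged 13.1 ± 2.02 CPM in PC3 MYCi975 and 17.4 ± 0.749 CPM in PC3 control, a change of -0.39 (adjusted p = 0.000212). With tetracycline its change was -0.36 (adjusted p = 0.0204), a call lost with TMM (0.0584) and without control replicate 1, control replicate 2 or tetracycline replicate 3 (0.0572 to 0.102). FANCL had 4.35, 6.94 and 5.73 CPM in the PC3 MYCi975 libraries, against 6.28, 7.92 and 8.73 CPM in the PC3 control libraries, and these groups overlapped. Its PC3 change of -0.38 (adjusted p = 0.0102) was not called without control replicate 3 (0.0863) or MYCi975 replicate 1 (0.164). FANCE, which contacts FANCD2, fell with tetracycline only, at 9.05 ± 0.148 CPM against 13.1 ± 0.621 CPM in control, a change of -0.49 (adjusted p = 0.000426). FANCC and FANCF, subunits that link parts of the core, had no call in the 3 comparisons. FANCC changed by -0.046 (95% confidence interval -0.24 to 0.15) in PC3, -0.045 (95% confidence interval -0.23 to 0.14) in P493-6 with MYCi975 and 0.13 (95% confidence interval -0.064 to 0.32) with tetracycline, and with TMM the last was called higher (0.203, adjusted p = 0.0477). FANCF, at 4.54 to 11.9 CPM over all libraries, changed by 0.077 (95% confidence interval -0.19 to 0.34), 0.033 (95% confidence interval -0.199 to 0.27) and 0.013 (95% confidence interval -0.24 to 0.26).

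FANCD2 and FANCI are the pair that the core complex ubiquitinates, and FANCD2 fell in all 3 comparisons while FANCI was not called in P493-6 with MYCi975. FANCI (chr15:89243949-89317261, plus strand) had 73.2, 75.2 and 73.9 CPM in the PC3 MYCi975 libraries, against 116, 115 and 118 CPM in the PC3 control libraries. P493-6 values for FANCI were 129, 133 and 127 CPM with MYCi975 and 105, 93.6 and 97.8 CPM with tetracycline, against 139.6, 135 and 120 CPM in control. The MYCi975 and control libraries overlapped in P493-6, while in PC3 they were far apart. FANCI changed by -0.64 (95% confidence interval -0.73 to -0.55, adjusted p = 3.85e-24) in PC3 and by -0.020 (95% confidence interval -0.12 to 0.083) in P493-6 with MYCi975, where it was not called. With tetracycline FANCI changed by -0.41 (adjusted p = 2.56e-08). FANCD2 had 48.6, 49.2 and 52.2 CPM in the PC3 MYCi975 libraries, against 64.5, 71.98 and 66.5 CPM in the PC3 control libraries. P493-6 values for FANCD2 were 85.02, 81.3 and 82.9 CPM with MYCi975 and 58.9, 53.8 and 59.3 CPM with tetracycline, against 94.2, 95.1 and 95.3 CPM in control. Its control libraries in P493-6 agreed closely, and all 6 treated libraries of that line lay below them. FANCD2 changed by -0.43 (adjusted p = 2.11e-11) in PC3, -0.19 (adjusted p = 0.00427) in P493-6 under MYCi975 and -0.72 (adjusted p = 4.28e-14) with tetracycline. FANCD2P2, an unprocessed pseudogene, makes the reads of FANCD2 uncertain where the copies match.

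Of the 6 resection and helicase genes all fell with tetracycline, 4 fell and 1 rose in PC3, and 3 fell in P493-6 with MYCi975. The shares of all genes called lower were 41.9% with tetracycline, 30.1% in PC3 and 18% in P493-6 with MYCi975. EXO1 (chr1:241847967-241895148, plus strand), an exonuclease of long-range resection, had 26.8, 28.2 and 25.4 CPM in the PC3 MYCi975 libraries, against 60.5, 57.6 and 61.2 CPM in the PC3 control libraries. P493-6 values for EXO1 were 52.6, 54.5 and 53.5 CPM with MYCi975 and 29.7, 28.1 and 27.4 CPM with tetracycline, against 78.3, 79.3 and 78.98 CPM in control. Replicates agreed closely, and no groups overlapped within a line. EXO1 changed by -1.13 (95% confidence interval -1.25 to -1.01, adjusted p = 4.35e-31) in PC3. For EXO1 in P493-6, the change was -0.55 (95% confidence interval -0.67 to -0.44, adjusted p = 2.03e-10) with MYCi975 and -1.44 (95% confidence interval -1.58 to -1.31, adjusted p = 9.17e-22) with tetracycline. It was the member with the largest change in P493-6 with MYCi975.

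BLM (chr15:90717327-90816165, plus strand), the helicase that unwinds resected DNA and dissolves Holliday junctions, had 8.84, 11.3 and 7.92 CPM in the PC3 MYCi975 libraries, against 17.6, 18.6 and 19.4 CPM in the PC3 control libraries. P493-6 values for BLM were 43.7, 46.6 and 48.6 CPM with MYCi975 and 31.3, 34.9 and 36.4 CPM with tetracycline, against 69.1, 57.5 and 66.9 CPM in control. Treated and control libraries were separate, and tetracycline libraries were below those with MYCi975. BLM changed by -0.93 (95% confidence interval -1.13 to -0.73, adjusted p = 8.78e-14) in PC3. For BLM in P493-6, the change was -0.47 (adjusted p = 3.13e-07) with MYCi975 and -0.89 (adjusted p = 9.06e-14) with tetracycline.

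RBBP8 (chr18:22798261-23026488, plus strand), whose product CtIP starts resection with MRE11, had 158, 159 and 155 CPM in the PC3 MYCi975 libraries, against 155, 163 and 163 CPM in the PC3 control libraries. P493-6 values for RBBP8 were 140.4, 149 and 155 CPM with MYCi975 and 57.3, 60.8 and 51.9 CPM with tetracycline, against 169, 166 and 153 CPM in control. Only the tetracycline libraries stood apart, below every other P493-6 library. RBBP8 changed by -1.51 (95% confidence interval -1.63 to -1.39, adjusted p = 1.52e-24) with tetracycline. In PC3 its change was -0.028 (95% confidence interval -0.103 to 0.047) and was not called. In P493-6 with MYCi975 it was -0.14 (adjusted p = 0.0305), lost with TMM (0.154), with edgeR (0.131) and without control replicate 1 or 2 or MYCi975 replicate 1 or 2 (0.0662 to 0.204).

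MRE11A, RAD50 and NBN code for the complex that first binds broken ends. MRE11A, the nuclease, had 50.1, 51.6 and 50.8 CPM in the PC3 MYCi975 libraries, against 65.8, 66.7 and 68.1 CPM in the PC3 control libraries. P493-6 values for MRE11A were 94.5, 95.8 and 101 CPM with MYCi975 and 44.4, 47.8 and 46.9 CPM with tetracycline, against 105, 102 and 96.9 CPM in control. It was lower in PC3 MYCi975 and in tetracycline libraries without overlap. MRE11A changed by -0.39 (adjusted p = 2.67e-10) in PC3, by -1.11 (adjusted p = 1.09e-19) with tetracycline and by -0.060 (95% confidence interval -0.16 to 0.044) in P493-6 with MYCi975, which was not called. RAD50 (chr5:132556019-132646344, plus strand), the ATPase that tethers the ends, had 43.8, 45.9 and 43.1 CPM in the PC3 MYCi975 libraries, against 40, 40.2 and 37.95 CPM in the PC3 control libraries. P493-6 values for RAD50 were 194, 198 and 218 CPM with MYCi975 and 117, 119 and 125 CPM with tetracycline, against 243, 213 and 204 CPM in control. PC3 libraries with MYCi975 were slightly above the controls, and tetracycline libraries were far below theirs. RAD50 changed by 0.16 (adjusted p = 0.0134) in PC3, a call lost without control replicate 3 (0.0736) or MYCi975 replicate 2 (0.0696). With tetracycline it changed by -0.86 (95% confidence interval -0.97 to -0.76, adjusted p = 9.47e-18). In P493-6 with MYCi975 RAD50 was at -0.11 (adjusted p = 0.114), called lower only without control replicate 3 (0.0295) or MYCi975 replicate 3 (0.0179). A second protein-coding gene model, AC116366.3, shares 79.7% of the exon bases of RAD50 on the same strand. NBN, the subunit that recruits ATM, averaged 174 ± 2.93 CPM in PC3 MYCi975 and 196 ± 2.01 CPM in PC3 control, a change of -0.17 (adjusted p = 2.17e-05). With tetracycline NBN averaged 91.6 ± 3.04 CPM, against 102 ± 7.87 CPM in control. That change of -0.15 (adjusted p = 0.01895) was lost with TMM (0.259), with edgeR (0.231) and without control replicate 1 or tetracycline replicate 1 or 3 (0.0544 to 0.201). The 3 subunits of the complex thus moved by unlike amounts with tetracycline.

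MUS81 and EME1 form a structure-specific endonuclease that cuts branched DNA, and in PC3 and with tetracycline MUS81 rose while EME1 fell. MUS81 (chr11:65857126-65867653, plus strand), the catalytic subunit, had 29.99, 32.1 and 36.97 CPM in the PC3 MYCi975 libraries, against 24.8, 21.7 and 19.96 CPM in the PC3 control libraries. P493-6 values for MUS81 were 28.7, 33.4 and 27.1 CPM with MYCi975 and 42.2, 50.4 and 37.5 CPM with tetracycline, against 28.9, 26.7 and 29.6 CPM in control. PC3 MYCi975 and tetracycline libraries lay above all their controls, and the P493-6 MYCi975 libraries overlapped them. MUS81 changed by 0.55 (95% confidence interval 0.403 to 0.71, adjusted p = 1.33e-09) in PC3 and 0.59 (95% confidence interval 0.41 to 0.76, adjusted p = 1.22e-07) with tetracycline. In P493-6 with MYCi975 its change was 0.060 (95% confidence interval -0.11 to 0.23) and was not called. CFL1, the cofilin gene on the opposite strand, shares 13.9% of the exon bases of MUS81 and changed by -0.33 (adjusted p = 9.09e-21) in PC3, -0.17 (adjusted p = 0.000381) in P493-6 under MYCi975 and 0.41 (adjusted p = 1.47e-13) with tetracycline. The library kit marks strand, but whether strand was used in counting is not given in the sources used here. EME1, the partner, had 6.63, 5.53 and 6.65 CPM in the PC3 MYCi975 libraries, against 9.61, 9.61 and 10.5 CPM in the PC3 control libraries. P493-6 values for EME1 were 9.41, 9.18 and 7.99 CPM with MYCi975 and 4.36, 6.003 and 6.37 CPM with tetracycline, against 12.5, 10.7 and 8.901 CPM in control. These levels are low, and in P493-6 the MYCi975 and control libraries overlapped. EME1 changed by -0.59 (adjusted p = 9.83e-06) in PC3, -0.24 (adjusted p = 0.155) in P493-6 under MYCi975 and -0.83 (adjusted p = 4.13e-06) with tetracycline. The middle value was called lower only without control replicate 3 (adjusted p = 0.0499). Genes on the opposite strand share exon bases with further members, LRRC41 with 25.1% of RAD54L, ZNF276 with 23.6% of FANCA, VRK2 with 18.7% of FANCL, LRRC59 with 16.4% of EME1 and GAS2 with 11.3% of FANCF. Processed pseudogenes exist for MRE11A and RBBP8, and one lies opposite 16.4% of the exon bases of ATR. The values of these members are uncertain to that extent.

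The ATR checkpoint was the role group whose 4 members all fell in all 3 comparisons, where 11.1% of the genes present throughout were called lower in all 3. CHEK1 (chr11:125625136-125676255, plus strand), the effector kinase, had 35.7, 38.2 and 38.2 CPM in the PC3 MYCi975 libraries, against 68.6, 67.1 and 69.1 CPM in the PC3 control libraries. P493-6 values for CHEK1 were 58.2, 58.2 and 60.7 CPM with MYCi975 and 27.1, 26.7 and 30.4 CPM with tetracycline, against 77.8, 75.4 and 73.2 CPM in control. No groups overlapped within a line. CHEK1 changed by -0.85 (95% confidence interval -0.96 to -0.74, adjusted p = 9.14e-26) in PC3. For CHEK1 in P493-6, the change was -0.35 (95% confidence interval -0.46 to -0.23, adjusted p = 4.84e-06) with MYCi975 and -1.397 (95% confidence interval -1.54 to -1.25, adjusted p = 1.03e-20) with tetracycline. ATR, the sensor kinase, averaged 42.7 ± 2.28 CPM in PC3 MYCi975 and 51.2 ± 2.001 CPM in PC3 control. In P493-6 ATR averaged 97.5 ± 3.59 CPM with MYCi975, 59.5 ± 3.92 CPM with tetracycline and 115 ± 4.03 CPM in control. ATR changed by -0.26 (adjusted p = 6.60e-05) in PC3, -0.23 (adjusted p = 0.000331) in P493-6 under MYCi975 and -0.94 (adjusted p = 7.88e-18) with tetracycline. Its partner ATRIP had 3.39, 5.596 and 4.03 CPM in the PC3 MYCi975 libraries, against 7.22, 9.09 and 8.96 CPM in the PC3 control libraries. P493-6 values for ATRIP were 11.6, 14.4 and 12.1 CPM with MYCi975 and 8.26, 9.56 and 7.18 CPM with tetracycline, against 15.2, 18.1 and 15.4 CPM in control. All treated libraries were below all controls of their line. ATRIP changed by -0.83 (adjusted p = 8.93e-08) in PC3, -0.33 (adjusted p = 0.01696) in P493-6 under MYCi975 and -0.89 (adjusted p = 3.78e-08) with tetracycline. The middle call was lost without control replicate 2 or MYCi975 replicate 1 or 3 (adjusted p = 0.0589 to 0.133). TREX1 shares 27.9% of the exon bases of ATRIP on the same strand. TOPBP1, the activator of ATR, averaged 49.2 ± 1.44 CPM in PC3 MYCi975 and 63.2 ± 3.25 CPM in PC3 control. In P493-6 TOPBP1 averaged 106 ± 3.67 CPM with MYCi975, 83.7 ± 1.11 CPM with tetracycline and 127 ± 7.19 CPM in control. Its changes were -0.35 (adjusted p = 1.50e-08), -0.27 (adjusted p = 5.12e-05) and -0.598 (adjusted p = 4.59e-13).

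The inhibitor and the MYC shut-off were then compared directly within P493-6, over its 9 libraries and 12860 genes. Most repair genes were higher with MYCi975 than with tetracycline. Of the 35 members, 26 were higher and 3 lower, where 42.3% of all genes were higher and 33.9% lower (limma). The median member difference was 0.54 on the log2 scale, against 0.0794 over all genes. XRCC2 differed most, by 1.66 (95% confidence interval 1.43 to 1.88, adjusted p = 7.19e-16), followed by RBBP8 with 1.37 (95% confidence interval 1.26 to 1.49, adjusted p = 3.78e-27) and UBE2T with 1.301 (95% confidence interval 1.11 to 1.49, adjusted p = 9.11e-18). MRE11A, CHEK1 and PALB2 differed by 1.05, 1.05 and 1.04. The 3 genes lower with MYCi975 were MUS81 at -0.53 (adjusted p = 1.11e-06), BARD1 at -0.399 (adjusted p = 9.29e-08) and RAD51AP1 at -0.21 (adjusted p = 0.0291). The last call was lost without MYCi975 replicate 3 (0.139) or tetracycline replicate 3 (0.144).

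Differences between the 2 agents were not called for 6 members. These were BRCA1 at 0.12 (95% confidence interval -0.00084 to 0.25), FANCM at 0.16 (95% confidence interval -0.0054 to 0.32), FANCC at -0.17 (95% confidence interval -0.36 to 0.014), FANCL at -0.17 (95% confidence interval -0.44 to 0.101), FANCF at 0.020 (95% confidence interval -0.22 to 0.26) and NBN at 0.021 (95% confidence interval -0.089 to 0.13). FANCC was called lower with MYCi975 than with tetracycline under TMM (-0.27, adjusted p = 0.00757) and edgeR (-0.28, adjusted p = 0.00756). Without 1 library, BRCA1 was called higher with MYCi975 (MYCi975 replicate 1, adjusted p = 0.0487, or tetracycline replicate 3, 0.0375), and so was FANCM (MYCi975 replicate 3, 0.0464). BRIP1 was called at 0.17 (adjusted p = 0.0498), and the call was lost with TMM (0.441), with edgeR, with a pseudocount of 0.1 CPM (0.0515) and on leaving out MYCi975 replicate 2 or 3, tetracycline replicate 1 or any control library (0.0505 to 0.277). For RAD51D, called at 0.302 (adjusted p = 0.0124), it was lost with TMM (0.0835), with edgeR (0.0829) and without MYCi975 replicate 1 (0.0592). FANCB, called at 0.44 (adjusted p = 0.003801), was not called without MYCi975 replicate 3 (0.0716). Of the 14 cycling markers, 9 were higher and 4 lower with MYCi975 than with tetracycline.

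Many of these genes fell further with MYCi975 in PC3 than in P493-6. A model over the 12 MYCi975 and control libraries tested the difference of the changes, PC3 minus P493-6, for 11240 genes. The change was lower in PC3 for 16 members and higher for 2, where 18.2% of all genes were lower and 18.1% higher (limma). The doses were 8 µM in PC3 and 6 µM in P493-6, so the effects of line and dose cannot be told apart. BRIP1 differed by -0.63 (95% confidence interval -0.82 to -0.45, adjusted p = 6.00e-07), XRCC2 by -0.63 (95% confidence interval -0.94 to -0.32, adjusted p = 0.00194) and FANCI by -0.62 (95% confidence interval -0.76 to -0.48, adjusted p = 1.13e-09). EXO1 followed with -0.58 (95% confidence interval -0.74 to -0.42, adjusted p = 2.87e-07) and CHEK1 with -0.505 (95% confidence interval -0.66 to -0.35, adjusted p = 1.46e-06). MUS81 and RAD50 had the higher change in PC3, by 0.49 (95% confidence interval 0.24 to 0.74, adjusted p = 0.00155) and 0.28 (95% confidence interval 0.12 to 0.43, adjusted p = 0.00447). The 14 cycling markers showed a difference in the same direction for 13 genes, with a median of -0.72; their part in the member differences was not tested.

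Several of the PC3 against P493-6 differences lost their call when a single library was left out. ATRIP, at -0.504 (adjusted p = 0.0315), lost its call without PC3 MYCi975 replicate 1 or 3, PC3 control replicate 2 or 3, P493-6 MYCi975 replicate 2 or P493-6 control replicate 1 or 3 (adjusted p = 0.0667 to 0.123). RAD51AP1, at -0.38 (adjusted p = 0.0298), lost it without PC3 MYCi975 replicate 1 or 3, PC3 control replicate 1 or 3, P493-6 MYCi975 replicate 1 or 2 or P493-6 control replicate 3 (0.0529 to 0.0823). The FANCA call at -0.31 (adjusted p = 0.0306) was lost without PC3 MYCi975 replicate 1 or 2, PC3 control replicate 1 or 2, P493-6 MYCi975 replicate 1 or P493-6 control replicate 3 (0.06103 to 0.111). That of RAD54B at -0.44 (adjusted p = 0.0242) was lost without PC3 MYCi975 replicate 2 or 3, PC3 control replicate 3, P493-6 MYCi975 replicate 1 or 3 or P493-6 control replicate 3 (0.0636 to 0.0815). FANCB, at -0.48 (adjusted p = 0.0278), was not called without PC3 MYCi975 replicate 2, PC3 control replicate 1 or 2, P493-6 MYCi975 replicate 3 or P493-6 control replicate 3 (0.0531 to 0.124). FANCD2 at -0.24 (adjusted p = 0.00963) lost its call without PC3 control replicate 2 (0.0502), and FANCM at -0.31 (adjusted p = 0.01301) without P493-6 MYCi975 replicate 2 (0.0541). BLM (-0.46), FANCG (-0.39), BRCA1 (-0.37) and MRE11A (-0.33) were called with each library left out in turn. Calls were also gained: with TMM 17 members and with edgeR 18 had a lower PC3 change, against 16. Over all 11240 genes the count with a lower PC3 change also rose, from 2046 to 2353 with TMM and to 2398 with edgeR. BARD1, not called at -0.205 (95% confidence interval -0.38 to -0.031), was called with TMM (-0.24, adjusted p = 0.0272), with edgeR (-0.25, adjusted p = 0.0213) and without replicate 3 of MYCi975 in PC3 (0.0393) or in P493-6 (0.0359). UBE2T, not called at -0.24 (95% confidence interval -0.48 to -0.0034), was called with edgeR (-0.31, adjusted p = 0.0399). EME1 was called without P493-6 control replicate 1 (0.0450) and RAD54L without PC3 MYCi975 replicate 3 (0.0439). With all libraries and no TMM scaling, no difference was called for the other members; BRCA2 at -0.035 (95% confidence interval -0.202 to 0.13), ATR at -0.024 (95% confidence interval -0.18 to 0.13), NBN at -0.047 (95% confidence interval -0.18 to 0.082) and TOPBP1 at -0.086 (95% confidence interval -0.24 to 0.064) had the narrowest intervals of these with RBBP8 at 0.11 (95% confidence interval -0.018 to 0.23).

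**Figure D3:**
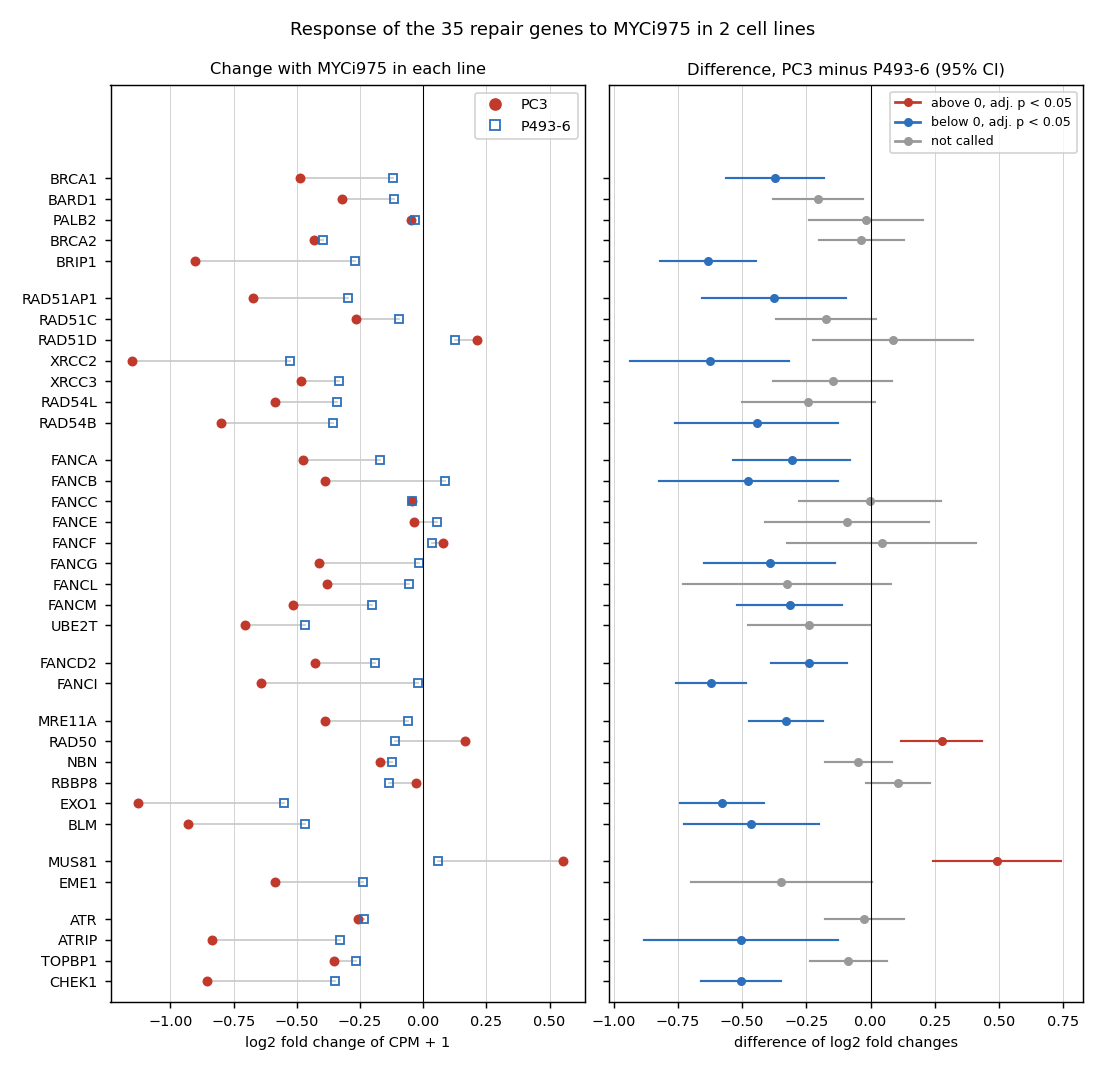
Left, log2 fold change with MYCi975 in PC3 (filled circles) and P493-6 (open squares) for each of the 35 genes. Right, the difference of the changes, PC3 minus P493-6, with 95% confidence intervals; 16 genes lie below 0 and 2, MUS81 and RAD50, above it at an adjusted p below 0.05.

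In the control cells most members were less abundant in PC3 than in P493-6. With the control libraries of both lines, 6 members were higher in PC3 and 25 lower, where 41.8% of all genes were higher and 43% lower (limma); the tables hold only genes that passed a minimum in each line. RAD50 showed the widest gap, at -2.45 (95% confidence interval -2.57 to -2.34, adjusted p = 1.89e-21). BLM followed with -1.74 (95% confidence interval -1.895 to -1.59, adjusted p = 3.01e-16), FANCG with -1.31 (adjusted p = 2.51e-12) and FANCA with -1.198 (adjusted p = 4.28e-14). The 6 genes higher in PC3 were RAD54B at 1.73 (95% confidence interval 1.53 to 1.92, adjusted p = 2.81e-14), NBN at 0.94 (adjusted p = 6.84e-15), FANCB at 0.88 (adjusted p = 6.22e-08), RAD51C at 0.600 (adjusted p = 5.18e-09), BRIP1 at 0.499 (adjusted p = 1.11e-08) and FANCM at 0.38 (adjusted p = 1.17e-05). RBBP8, EME1, FANCL and XRCC2 were not called; XRCC2 at -0.25 (adjusted p = 0.0524) was called lower in PC3 with TMM (0.0483), with edgeR (0.0213) and without P493-6 control replicate 3 (0.000422).

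Levels were compared between genes per kilobase of exon, counting all annotated exons of a gene together. On this scale NBN (31.8 CPM per kb) and RBBP8 (31.5) were the most abundant members in PC3 control, and FANCI (14.95) and EXO1 (14.4) came next. In P493-6 control the order was led by RBBP8 (31.99 CPM per kb), UBE2T (23.2), RAD50 (22.5) and EXO1 (19.1). RAD51D had the lowest level in both controls, 0.983 CPM per kb in PC3 and 1.27 in P493-6. With tetracycline the leading members were NBN (14.9 CPM per kb), FANCI (12.7), RAD50 (12.3) and BARD1 (12.2), and RBBP8 was at 11.1. The kit enriches exons with probes, so these levels also reflect how well each gene is captured.

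Other repair pathways were described by lists that share no gene with the 35. For their counts, the shares of all genes called lower were 30.1% in PC3, 18% in P493-6 with MYCi975 and 41.9% with tetracycline. Those called higher were 29%, 10.6% and 36.2%. Of 40 further recombination and Fanconi genes, 19 fell and 4 rose in PC3 (median -0.21), 15 fell and 0 rose in P493-6 with MYCi975 (median -0.16), and 24 fell and 8 rose with tetracycline (median -0.42). FIGNL1, a regulator of recombination, had the largest called change of that list in PC3, at -1.02 (adjusted p = 2.03e-27). STRA13, listed under the older symbol of a centromere and FANCM partner, fell by 2.23 with tetracycline (adjusted p = 3.83e-21). GEN1, a Holliday junction resolvase, fell by 0.76 in PC3 (adjusted p = 1.43e-14). In P493-6, GEN1 was higher with tetracycline, at 97.8, 90.5 and 101.4 CPM, against 53.02, 48.15 and 49.4 CPM in control.

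Mismatch repair, with 7 genes, had 4 lower and 3 higher in PC3, 3 lower and 0 higher in P493-6 with MYCi975, and 7 lower with tetracycline. MSH6, which recognises mismatches, changed by -0.91 (adjusted p = 4.70e-37) in PC3 and by -1.31 (adjusted p = 2.35e-27) with tetracycline. In base excision repair 10 of 19 genes fell and 2 rose in PC3, 6 fell and 0 rose in P493-6 with MYCi975, and 12 fell and 4 rose with tetracycline. The largest falls were those of FEN1 at -1.38 (adjusted p = 5.38e-50) in PC3 and of UNG, the uracil glycosylase, at -2.56 (adjusted p = 1.58e-28) with tetracycline. Nucleotide excision repair stood at 4 lower and 3 higher of 18 in PC3, at 1 lower and 2 higher in P493-6 with MYCi975, and at 12 lower and 2 higher with tetracycline; ERCC2, a TFIIH helicase, rose by 0.84 in PC3 (adjusted p = 2.46e-33). End joining, the competing route for breaks, had 5 lower and 3 higher of 10 genes in PC3, 3 lower and 1 higher in P493-6 with MYCi975, and 4 lower and 4 higher with tetracycline. Its median changes were -0.17, -0.013 and -0.076, and XRCC6, a Ku subunit, fell in each, by 0.73, 0.29 and 1.35. Among 23 damage signalling partners, 14 fell and 4 rose in PC3, 12 fell and 2 rose in P493-6 with MYCi975, and 16 fell and 2 rose with tetracycline. CDC25A, the phosphatase that CHEK1 targets, fell by 1.38, 0.400 and 2.12 in these comparisons. CLSPN, the adaptor that links ATR to CHEK1, fell by 1.13 in PC3 and 0.63 in P493-6 with MYCi975. No difference between lists was tested.

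**Figure D4:**
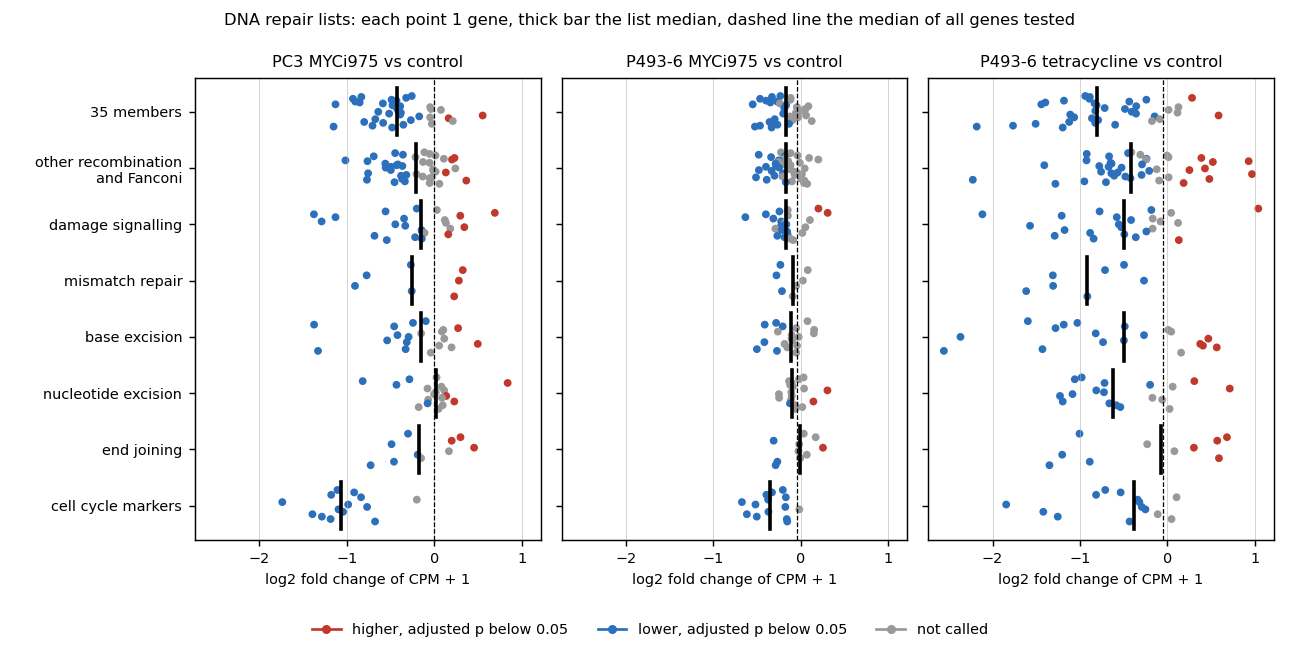
Log2 fold change (x axis) of every gene of 8 lists (rows) in the 3 comparisons. Points are genes, thick bars list medians and the dashed line the median of all genes tested; the 35 repair genes have medians of -0.43, -0.17 and -0.81, and end joining stays nearest to 0 in both P493-6 panels.

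Genes of the E2F family and its partners were described as a further list. Of 13, 6 fell and 2 rose in PC3, 5 fell and 0 rose in P493-6 with MYCi975, and 8 fell and 4 rose with tetracycline. The shares of all genes called lower were 30.1%, 18% and 41.9%, and those called higher were 29%, 10.6% and 36.2%. The list medians were -0.108, -0.118 and -0.378. TFDP1, the dimer partner of E2F factors, changed by -0.92 (adjusted p = 1.61e-36) in PC3 and -1.696 (adjusted p = 5.24e-31) with tetracycline. E2F8, a repressor of the family, changed by -1.38 (adjusted p = 4.30e-20) in PC3 and -0.54 (adjusted p = 6.29e-06) in P493-6 under MYCi975. RB1, the restraining partner of E2F factors, rose by 1.04 with tetracycline (adjusted p = 1.42e-24).

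Promoter windows of 300 bases around the RefSeq start were found for 32 of the 35 members; RAD54B, FANCI and NBN had no entry. Of the 32 windows, 25 hold the gene start given in the files, and those of BRCA1, RAD51D, FANCF, RAD50, RBBP8, MUS81 and CHEK1 do not. An E2F match stood in 6 of the 32 windows, where 3.31% of 35116 promoters of that length hold one. These were EXO1, XRCC2, FANCA, FANCD2, TOPBP1 and FANCC. Of the 15 windows of members lower in all 3 comparisons 5 held the motif, and of the other 17 windows 1 did. Of the windows that miss the gene start of the files, only that of CHEK1 is among the 15. The rest are among the 17, so the split also compares windows that are placed differently. NF-Y boxes stood in 14 of the 32 windows, against 34.6% of all promoters, among them 9 of those 15 and 5 of those 17. XRCC3 held 5 of them, and BRIP1 and BLM held 3 each. The E-box stood in 3 windows, those of BRCA2, FANCC and RAD50, against 7.26% of all promoters, and the CHR stood in 3, those of BRIP1, UBE2T and FANCC, against 16.4%. FANCC, which was called in none of the 3 comparisons, held the E2F, E-box and CHR motifs together. Overlap between motifs was allowed and none was tested against expression.

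**Figure D5:**
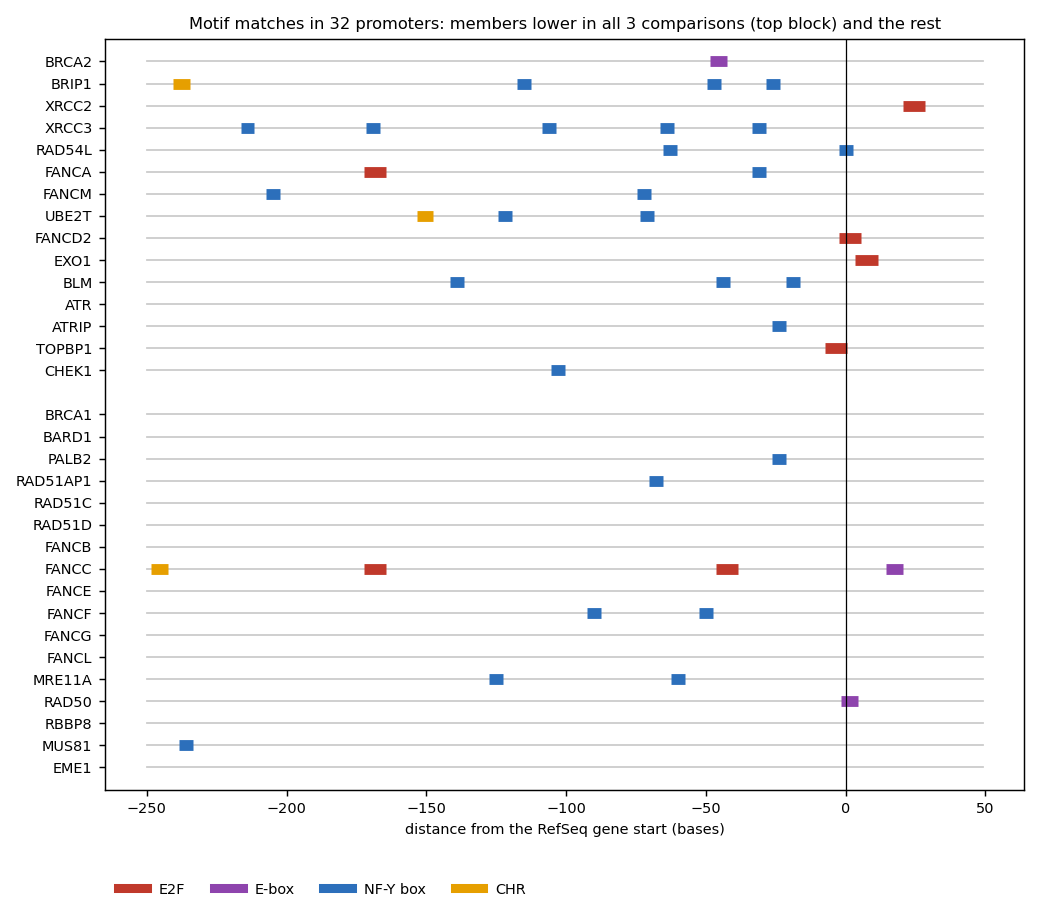
Position of each motif match relative to the RefSeq gene start (x axis, bases; grey line, the 300-base window) in 32 member promoters. The upper block holds the 15 members lower in all 3 comparisons and the lower block the other 17. E2F matches (red) stand in 5 windows of the upper block and in 1 of the lower. Windows that miss the gene start of the files are in the lower block, except that of CHEK1.

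In the authors' deposited table, read at an adjusted p below 0.01, 26 members were lower and 2 higher in PC3, 10 lower and 0 higher in P493-6 with MYCi975, and 26 lower and 2 higher with tetracycline. Each of these had the same call here, and none had the opposite one. The libraries were the same and the threshold used here was looser, so this is not an independent check. The reverse did not hold: 18 members were called lower here in P493-6 with MYCi975. Among them, the authors' adjusted p (edgeR) was largest for RBBP8 (0.139), FANCM (0.108), FANCA (0.069) and RAD54B (0.063). The shares of all genes in the authors' table below 0.01 are not given here.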

How the data were processed

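RNA of 15 samples was captured with a strand-specific exon-capture kit (TruSeq RNA Access, 50 ng of RNA, per the labels' protocols). Alignment used STAR and hg38, counting used HTSeq and testing used edgeR, per the submitters' processing notes; neither their versions nor the annotation or strand setting is given in the sources used here. The authors deposited CPM per library, and all genes listed exceeded 1 CPM in 2 or more of a table's 6 libraries. The authors also deposited log2 fold changes and adjusted p-values from edgeR, used only where named. Each deposited CPM was a whole number of reads, for 100% of values within 0.001 reads, in libraries of 8162582 to 15926008 reads; such depth limits genes of a few CPM. On these reads edgeR called 8103 genes in PC3 with MYCi975, 3502 in P493-6 with MYCi975 and 10726 with tetracycline.

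Values were tested as log2(CPM + 1) with limma 3.58.1 (R 4.3.3, trend and robust options), with Benjamini-Hochberg adjustment over all genes of a table and two-sided calls at an adjusted p of 0.05, and fold changes on this scale understate changes of low genes. The fit was also run on simulated data in which all genes had the same spread beyond sampling noise and few genes were changed. The real data hold many changed genes, so that run does not measure how reliable the calls are here. Replicates differed by more than sampling noise, with chi-square per gene of 2.02 to 5.91 over 15 pairs. Control values were identical in both P493-6 tables. Alternatives were a pseudocount of 0.1, a mean CPM of at least 5, TMM scaling, edgeR 4.0.16 on the whole reads, the replicate number as a block and each library left out. All 35 members are described; from other lists the rule named up to 3 called genes with the largest change per comparison. The members and lists were chosen with earlier results of these data known. Coordinates are those of the files (hg38); gene overlaps came from GENCODE and promoters from RefSeq (GRCh38.p14). Some genes of the other lists are not reported here by name.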

Additional observations from a re-analysis of the deposited data

Results flagged for a closer look

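For 18 members the change with MYCi975 differed between the lines by a test of the difference itself, over 12 libraries (PC3 change minus P493-6 change on the log2 scale, limma, adjusted p below 0.05 over all genes). The PC3 change was the lower one for 16 of them and the higher one for 2, where 18.2% of all genes were called lower and 18.1% higher. The calls of 7 of the 18, ATRIP, FANCB, RAD54B, RAD51AP1, FANCM, FANCA and FANCD2, were lost in at least 1 fit that left out a single library. Among the complex of BRCA1 and its partners, the difference was -0.6335 for BRIP1 and -0.3709 for BRCA1. Genes that assist strand exchange gave -0.6266 for XRCC2, -0.4434 for RAD54B and -0.3761 for RAD51AP1. In the Fanconi core it was -0.4762 for FANCB, -0.3932 for FANCG, -0.3144 for FANCM and -0.3078 for FANCA, and in the pair that the core marks it was -0.6212 for FANCI and -0.239 for FANCD2. Resection and helicase genes gave -0.5793 for EXO1, -0.464 for BLM, -0.3296 for MRE11A and 0.2775 for RAD50. The checkpoint genes CHEK1 and ATRIP gave -0.5046 and -0.5039, and the nuclease gene MUS81 gave 0.494. Doses differed between the lines, at 8 µM in PC3 and 6 µM in P493-6.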

How the results depend on the processing

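None of the 2625 recomputed member values turned its direction while called; 2508 stayed on their side of the threshold, of which 57, called in neither fit, changed sign, while 92 lost the call and 25 gained one. The count of members higher in PC3 with MYCi975, which was 2, ranged over 1 to 3 when each library was left out, and it was 1 without control replicate 3 or MYCi975 replicate 2. Counts of lower members ranged over 26 to 27 in PC3, 13 to 19 in P493-6 with MYCi975 and 26 to 29 with tetracycline when each library was left out, and over 11 to 16 for the difference between the lines. With TMM scaling, 14 members were lower in P493-6 with MYCi975 and 26 with tetracycline; edgeR gave 14 and 27. TMM moved the median of all genes by less than 0.1 in every comparison. Over all genes, same-numbered libraries did not deviate together (correlations of -0.0711 to 0.0447). Such correlations cannot exclude a shared batch that affects some genes. With the replicate number as a block, 16 members were lower in P493-6 with MYCi975 against 18, and 14 against 16 for the difference between the lines. The calls that the block changed were FANCM (adjusted p = 0.0652) and RBBP8 (0.0678) in P493-6 with MYCi975 and FANCA (0.0587) and FANCB (0.0569) for the line difference, no longer called, and XRCC2 between the controls (0.0285), newly called. Depth limits the genes of a few CPM, among them FANCF and EME1, whose intervals are wide.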
